A study of Danio rerio with 82 samples.

Results

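The genes described here are 10 zebrafish (Danio rerio) genes of the apoptosis pathway, in its mitochondrial and death receptor branches. They are the antiapoptotic BCL2 relatives bcl2, bcl2l10, mcl1a and mcl1b, the pore-forming effectors baxa and baxb, the initiator caspases casp8 and casp9, and the executioner caspases casp3a and casp3b. They were chosen by symbol, not by level, from the 27564 symbols (28405 loci) of the deposited tables, and all 10 of 10 were found, at 12 loci. The study sequenced polyadenylated RNA of oocytes of the wild-type Tu strain, which were picked by morphology from ovaries of adult females and freed of follicle cells as far as that was possible. The groups are oocytes of stages I to IV, labelled in that order as G1-phase, S-phase, prophase I and metaphase I, untreated, with 1 library per stage out of a series of 82 samples. How many females and oocytes a library pools is not given in the labels.

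In this pathway, antiapoptotic BCL2 proteins bind BAX-type effectors and the BH3-only proteins that trigger them, and so keep the outer mitochondrial membrane closed. When effectors open the membrane, cytochrome c leaves and joins APAF1 in the apoptosome, which activates caspase 9. Death receptors activate caspase 8 through adaptors, and both initiators cleave executioner caspases, which cut the cell's proteins. In the ovary the pathway is known for the removal of oocytes and follicle cells by atresia, and the oocyte's transcripts of these genes are also the maternal supply of the early embryo.

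Across the stages, the summed antiapoptotic transcripts were far above the summed effectors and caspases, a sum carried by mcl1a and bcl2l10, while bcl2 was below both BAX genes, casp8, casp9 and casp3a in every stage as an estimate. As deposited, mcl1a was highest in stage I, and bcl2l10 and mcl1b were highest in stage IV. The effector copies went apart in stage IV, where baxa was at its highest level and baxb at its lowest. There casp9 was also at its highest estimate, and bcl2 at its lowest. Levels are given as FPKM, which divides a locus's fragments by transcript length and by library size, with the authors' lower and upper bound. Each stage being a single library, differences lack a replicate check, no p-value is given, and higher and lower describe these libraries. In the poly(A) RNA of whole cells, fewer cells of a type and less RNA per cell cannot be told apart, and a transcript with a shortened tail can be missed.

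**Figure D1:**
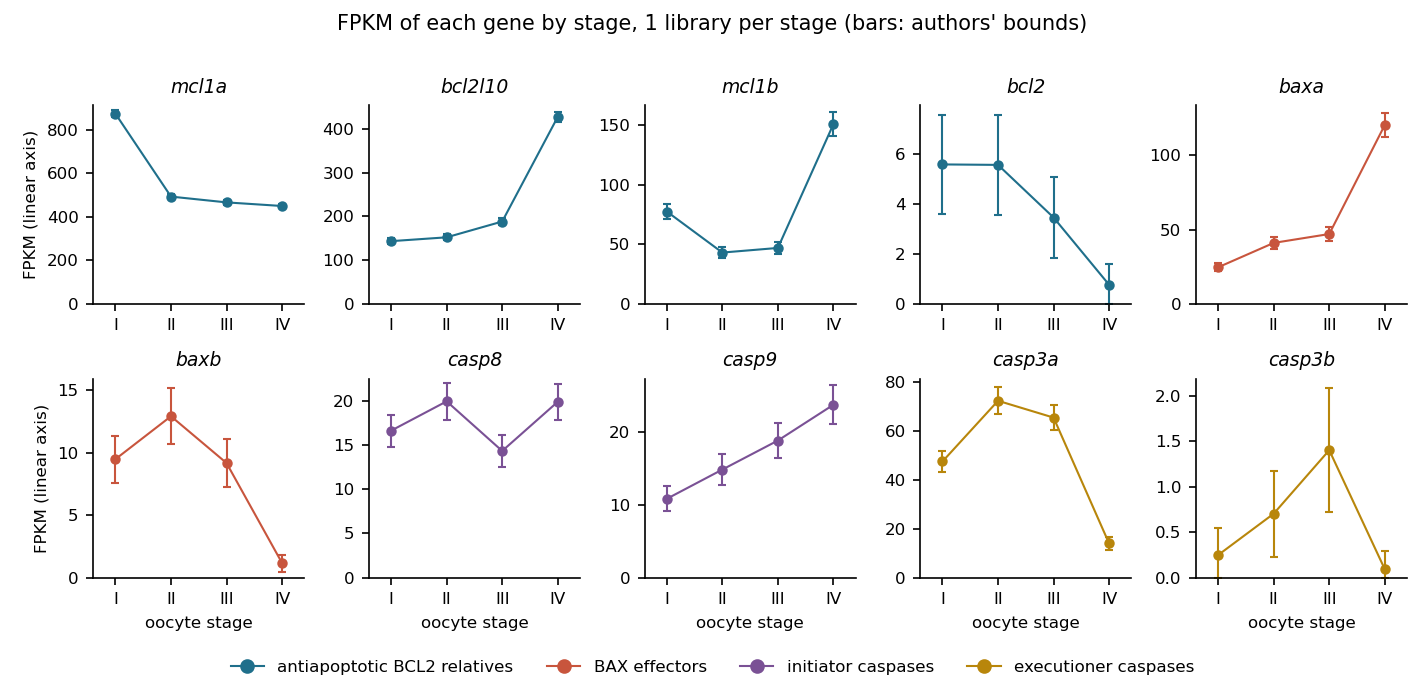
FPKM (linear axes that start at 0, a scale per gene) of the 10 genes in oocyte stages I to IV, 1 library per stage, with bars for the authors' lower and upper bounds; lines only join the points. The stage IV point is the highest of the row for bcl2l10 (428), mcl1b (151), baxa (120.4) and casp9 (23.8) and the lowest for mcl1a (449.8), baxb (1.17), casp3a (14), bcl2 (0.766) and casp3b (0.0933).

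Depth and the cell type check apply to all values below. Summed over loci, the bounds are as wide as those of 6201820 counted fragments in stage IV and 6606980 in stage II, with stages I and III between, if counting were their only source. The sources used here do not say what errors went into them. The 10 genes held between 0.107% (stage III) and 0.177% (stage IV) of the summed FPKM. Of 18 oocyte marker genes, 17 were in the files and 15 had a mean of at least 1 FPKM, while figla and h1m were listed at 0 in all 4 libraries. The oocyte marker sum was 10356, 7035, 6454 and 2551 FPKM in stages I to IV. Follicle cell markers (20 of 20 in the files) summed to 647, 437, 943 and 208 FPKM, of which the steroid synthesis gene cyp11a1 alone gave 170.5 in stage IV, where 8 of the 20, among them foxl2, fshr, lhcgr and star, were listed at 0. Stroma and vessel markers (13 of 14) summed to 322, 109, 347 and 11.5 FPKM, with lum listed at 0 in stages II to IV. Blood and leukocyte markers (15 of 16) summed to 178, 109, 221 and 12 FPKM, with mpeg1 listed at 0 in stage IV. Markers of other ovarian cells were thus detected in all 4 libraries, with their highest sums in stage III and their lowest in stage IV. In stage IV the follicle cell marker cyp17a1 was at 33.8 FPKM (31.5 to 36.1). Apart from cyp11a1 and cyp17a1, every follicle cell marker was at or below 1.83 FPKM there (krt8), with krt18 at 0.291 and inha at 0.305. Which cells the cyp11a1 and cyp17a1 transcripts came from was not tested.

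The antiapoptotic gene mcl1a (chromosome 19, 358591 to 363093, danRer7, the build of all positions given) encodes a short-lived BCL2 relative that binds BH3-only proteins and effectors. In the mouse, its homologue Mcl1 is known to be needed for oocyte survival. From stage I through stage IV, mcl1a measured 874 (bounds 857 to 890), 493 (481 to 505), 466 (455 to 478) and 449.8 (438 to 461) FPKM. Stage I stood above the other stages, and the bounds of stages III and IV overlapped as deposited, while median-of-ratios scaling put stage IV above stage III by 0.86 on the log2 scale. It ranked 128th of 28405 loci in stage I and 213th in stage IV, the highest of the 10 genes in each library. On the log2(FPKM + 1) scale, stage II was below stage I by a difference of -0.82, and 4.68% of the 14109 loci averaging 1 FPKM or more had a smaller value in that comparison. Stage IV differed from stage I by -0.96, under the 2-fold rule (a difference of at least 1), and by -0.09 after the scaling.

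Its paralogue mcl1b (chromosome 16, 31846295 to 31848260) measured 77.5 (71.3 to 83.8), 43.1 (38.5 to 47.6), 47 (42.2 to 51.7) and 151 (141 to 161) FPKM over the 4 stages in turn. Stages II and III overlapped and were lowest, and stage IV was above all others. The difference of stage IV from stage III was 1.66 on the log2 scale, a 3.21-fold ratio of FPKM, and that from stage I was 0.95. Both mcl1 genes were thus lower in stage II than in stage I by nearly the same amount (-0.82 and -0.83), while only mcl1b was past the rule in the step to stage IV. After median-of-ratios scaling, stage II differed from stage I by -0.997 for mcl1a and -0.9998 for mcl1b, just under the rule. The ratio of mcl1a to mcl1b was 11.3 (bounds allow 10.2 to 12.5), 11.4, 9.93 and, in stage IV, 2.98 (2.73 to 3.27). The labels do not say how fragments shared by close paralogues were divided, which leaves an uncertainty in the levels of mcl1a and mcl1b, baxa and baxb, and casp3a and casp3b.

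The gene bcl2l10 (chromosome 18, 37544011 to 37556294) encodes the protein known in zebrafish as Nrz, which in the embryo controls calcium release from the endoplasmic reticulum. Its human homologue is known as an abundant oocyte transcript. Over the 4 stages in turn it measured 144 (137 to 150), 152 (145 to 159), 188 (181 to 196) and 428 (416 to 439) FPKM. Stages I and II overlapped, stage III was above them, and stage IV was 2.27-fold above stage III and 2.98-fold above stage I. The log2 difference of stage IV from stage I was 1.57 (the bounds allow 1.46 to 1.68), and 11.6% of loci had a larger one. By stage IV the gene ranked 230th, and its level overlapped that of mcl1a. The ratio of mcl1a to bcl2l10 was 6.09 (5.70 to 6.51), 3.24 (3.02 to 3.47), 2.475 (2.32 to 2.65) and 1.05 (0.998 to 1.11) in stages I to IV, lower in each successive stage with no overlap of these ranges.

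The founding member bcl2 was low throughout. At its main locus (chromosome 24, 29060361 to 29151442) the successive values were 5.58 (3.59 to 7.58), 5.57 (3.58 to 7.55), 3.46 (1.84 to 5.08) and 0.766 (0 to 1.61) FPKM. Stages I to III overlapped and stage IV was below them. The stage IV value rests on bounds as wide as those of 3.25 fragments, so the log2 difference from stage I, -1.90, could lie between -3.10 and -0.81. The gene bcl2 supplied 0.0744% to 0.802% of the summed antiapoptotic FPKM. In that sum mcl1a supplied 79.4%, 71%, 66.1% and 43.7% in stages I to IV, bcl2l10 supplied 13%, 21.95%, 26.7% and 41.6%, and mcl1b supplied 7.05%, 6.21%, 6.66% and 14.7%.

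The effector gene baxa (chromosome 3, 37771271 to 37780655) encodes BAX, which opens the outer mitochondrial membrane when triggered. The successive values were 24.7 (22 to 27.3), 41.1 (36.9 to 45.2), 47 (42.6 to 51.5) and 120.4 (112 to 128) FPKM. Stages II and III overlapped, and each was above stage I and below stage IV. Stage IV was 4.88-fold above stage I, a log2 difference of 2.24 (2.00 to 2.49) that was exceeded by 4.56% of loci. It was the largest positive difference among the 10 genes, and the gene moved from rank 4684 to rank 1226.

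The second BAX relative baxb (chromosome 3, 32211782 to 32216892) went the other way. Its successive values were 9.48 (7.60 to 11.4), 12.9 (10.7 to 15.2), 9.18 (7.25 to 11.1) and 1.17 (0.493 to 1.85) FPKM. Stages I to III overlapped, and stage IV was 8.08-fold below stage I, a log2 difference of -2.27 (-3.05 to -1.59). The ratio of baxa to baxb was 2.60 (1.93 to 3.60), 3.18 (2.44 to 4.24), 5.13 (3.84 to 7.10) and 103 (60.7 to 260.4) in stages I to IV. The copy baxa therefore supplied 72.2% of the summed FPKM of baxa and baxb at first and 99.04% by stage IV.

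The sum of the 4 antiapoptotic genes was 1100, 694, 705 and 1029 FPKM in stages I to IV, and the sum of the BAX genes was 34.1, 54, 56.2 and 122. The antiapoptotic over BAX ratio took the successive values 32.2 (27.6 to 38.2), 12.9 (11.1 to 15.1), 12.5 (10.9 to 14.7) and 8.46 (7.64 to 9.41). With baxa and baxb in the BAX sum, stages II and III overlapped in this ratio, stage I was above them and stage IV below them. Between stages I and II the ratio was lower with less mcl1a and more baxa, and between stages III and IV it was lower although the antiapoptotic sum was higher, since the BAX sum was higher by more. A ratio within a library does not depend on how libraries are scaled to each other. It does depend on the genes summed. The BAX sum left out a further locus named BAX (3 of 5). That locus measured 17.9 FPKM (15.4 to 20.4) in stage III but only 6.49 (4.97 to 8.00) in stage IV. Counting it would lower the stage III ratio by more than the stage IV ratio. Whether these stages would then stay apart by their bounds was not tested, and the sums given here leave the locus out. With the BAX relatives boka and bokb, the effector sums were 101, 123, 118 and 235 FPKM in stages I to IV, still below the antiapoptotic sums.

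**Figure D2:**
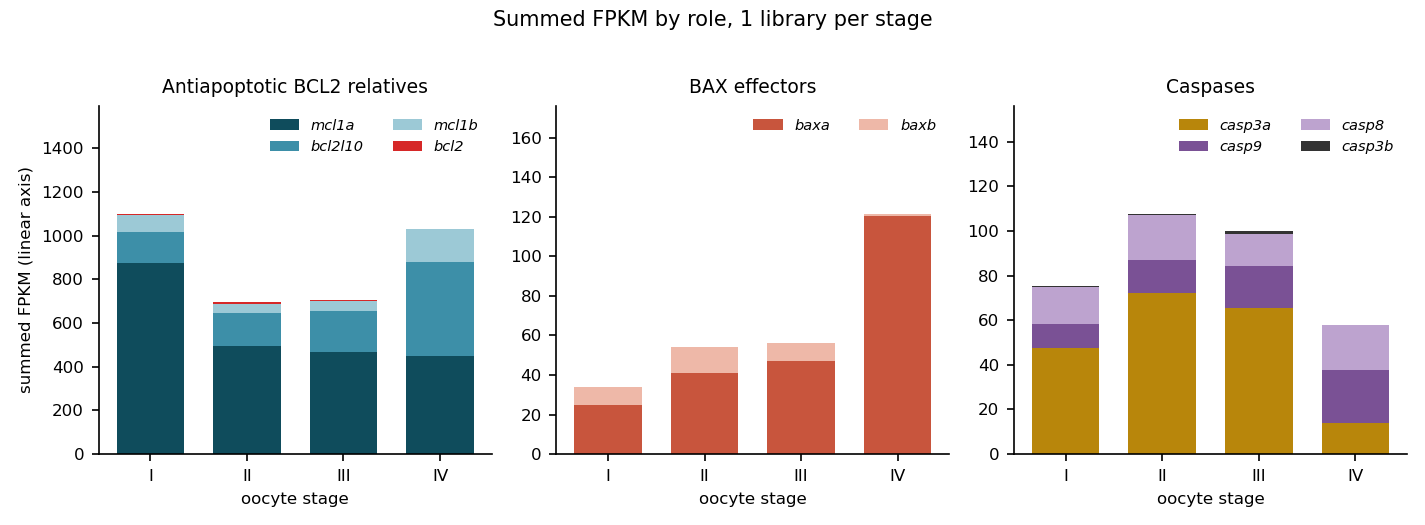
Stacked FPKM (linear axes from 0) of the antiapoptotic genes, the BAX effectors and the caspases in oocyte stages I to IV, 1 library per stage, each colour being a gene; sums have no error bars. The antiapoptotic sum is 1100 in stage I and 1029 in stage IV, with the mcl1a part shrinking from 79.4% to 43.7%, and casp3a leads the caspase sum in stages I to III but not in stage IV.

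The initiator caspase gene casp9 (chromosome 23, 25261112 to 25272611), whose product is activated on the apoptosome, measured 10.9 (9.12 to 12.6), 14.9 (12.8 to 17), 18.9 (16.5 to 21.3) and 23.8 (21.1 to 26.5) FPKM over the 4 stages in turn. The estimate was higher at each stage, but stage III overlapped both stage II and stage IV by its bounds. Stage IV was 2.19-fold above stage I, a log2 difference of 1.06 (0.70 to 1.44).

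The death receptor initiator casp8 (chromosome 6, 12957805 to 12968646) was at 16.6 (14.8 to 18.4), 19.9 (17.9 to 22), 14.3 (12.5 to 16.1) and 19.9 (17.8 to 21.9) FPKM. As deposited it stayed within a narrow range, which median-of-ratios scaling widened to a difference of 1.07 between stages IV and I, with stage III below stages II and IV and the bounds of stages I, II and IV overlapping. The ratio of casp9 to casp8 was 0.654 (0.495 to 0.852) and 0.748 (0.583 to 0.951) in stages I and II, and 1.32 (1.03 to 1.69) and 1.20 (0.964 to 1.49) in stages III and IV.

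The executioner caspase gene casp3a (chromosome 1, 16269237 to 16278202) was the most abundant of the 4 caspases in stages I to III. Its values over the 4 stages were 47.4 (43.1 to 51.8), 72.2 (66.6 to 77.8), 65.4 (60.1 to 70.6) and 14 (11.3 to 16.6) FPKM. Stages II and III overlapped and were highest, and stage IV was below all others, 4.68-fold below stage III and 3.39-fold below stage I. The log2 differences were -2.15 and -1.69. In stage IV casp3a was below casp9 and casp8, whose bounds overlapped each other.

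Its paralogue casp3b (chromosome 14, 4304679 to 4324092) measured 0.249 (0 to 0.543), 0.704 (0.230 to 1.18), 1.40 (0.723 to 2.08) and 0.0933 (0 to 0.290) FPKM over the 4 stages. Only stages I and III, and stages III and IV, had bounds that did not overlap, and the values rest on at most 17.1 fragment equivalents. With a mean of 0.612 FPKM it was the 1 member of the 10 below the filter. Summed initiator over executioner FPKM was 0.576 (0.457 to 0.719), 0.477 (0.388 to 0.583) and 0.497 (0.400 to 0.614) in stages I to III and 3.10 (2.303 to 4.27) in stage IV. Stages I to III overlapped in this ratio and stage IV stood above them.

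In the order of levels within each stage, mcl1a was first and bcl2l10 next in all 4 libraries, and casp3b was last. In stage I every neighbour in the order was apart by its bounds except casp9 and baxb. In stage II casp3a came after bcl2l10, and the pairs mcl1b with baxa and casp9 with baxb overlapped. In stage III baxa overlapped mcl1b, and bcl2 overlapped casp3b. In stage IV the overlapping neighbours were mcl1a with bcl2l10, casp9 with casp8, baxb with bcl2, and bcl2 with casp3b.

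The comparisons between stages were then counted for the 9 members that passed the filter of a mean of at least 1 FPKM. Between stages II and I, 0 of 9 were past the 2-fold rule, against 5.82% of all 14109 loci (2.67% higher and 3.15% lower). Between stages III and II it was again 0 of 9, against 16.2% (8.67% higher and 7.5% lower), and between stages III and I 0 of 9, against 17% (10.1% higher and 6.94% lower). Between stages IV and III, 3 of 9 were higher (mcl1b, baxa and bcl2l10), against 16.4% of loci, and 3 of 9 lower (baxb, casp3a and bcl2), against 46% of loci, so that 6 of 9 were called beside 62.4% of loci. Stage IV against II called the same 3 higher, against 15.6%, and the same 3 lower, against 46.1%, beside 61.8% in either direction. Between stages IV and I, 3 of 9 were higher (baxa, bcl2l10 and casp9), against 19.1% of loci, and baxb, casp3a and bcl2 were lower, against 44.4%, beside 63.4% of loci in either direction. The median difference was 0.25 over the 9 members and -0.75 over all loci between stages IV and I, and 0.32 and -0.82 between stages IV and III. For stages II and I the medians were 0.25 and 0.20, and for stages III and II -0.08 and -0.10. The comparisons share libraries and are not independent of each other.

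The scale of stage IV bears on these counts. Median-of-ratios scaling, which sets the typical locus equal between libraries, moved the median of all loci between stages IV and I by 0.69, from -0.75 to -0.05, and between stages IV and III by 0.77. The shift was -0.15 between stages II and I and 0.10 between stages III and II. After it, 5 of 9 members were higher in stage IV than in stage I (baxa, bcl2l10, casp9, mcl1b and casp8, against 31.8% of loci) and 2 lower (baxb and bcl2, against 31.8%), and casp3a was at -0.87. The antiapoptotic sums became 985 for stage I and 1678 for stage IV. Differences that changed sign with it were those of mcl1a between stages III and II (-0.08 to 0.04), IV and III (-0.05 to 0.86) and IV and II (-0.13 to 0.90), that of bcl2l10 between stages II and I (0.09 to -0.09), and that of casp8 between stages IV and II (-0.00 to 0.99). All of these were under the rule before and after scaling, and the bounds of bcl2l10 and casp8 overlapped there.

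**Figure D3:**
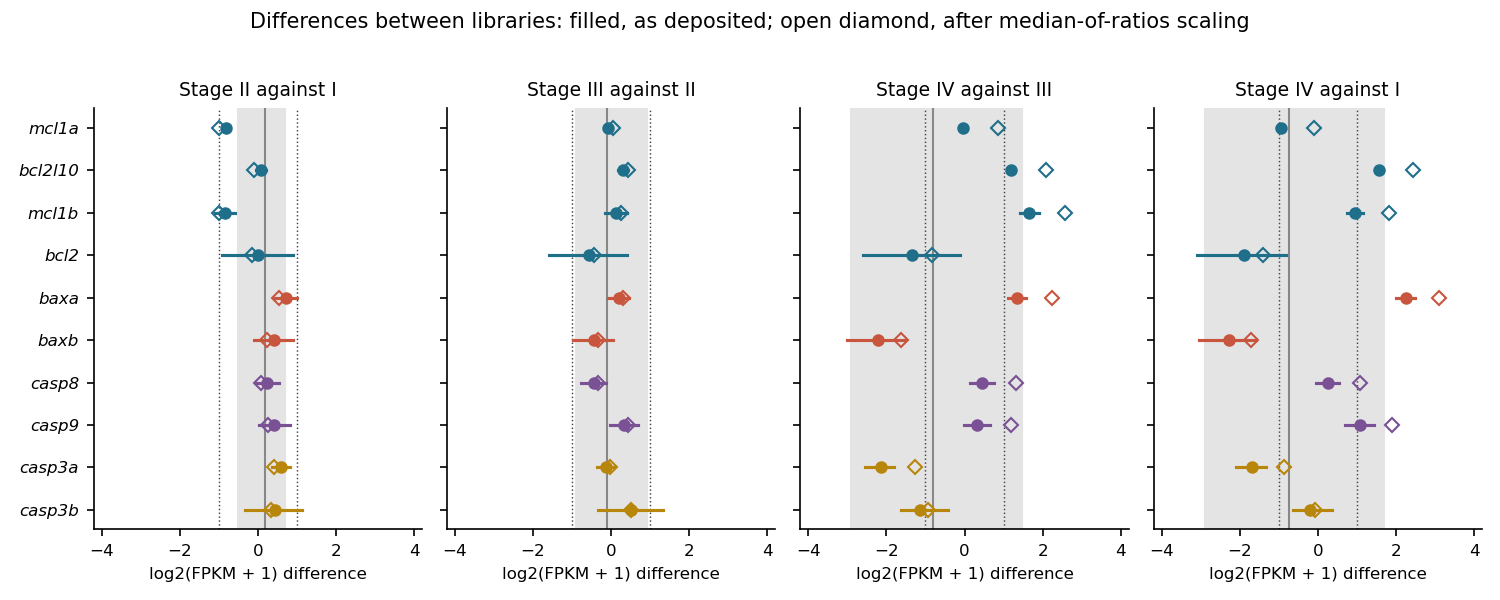
Difference of log2(FPKM + 1) of the 10 genes in 4 comparisons of single libraries: filled circles as deposited, horizontal lines the range the authors' bounds allow, open diamonds after median-of-ratios scaling, colours by role as in the plot of FPKM by stage. Grey bands run from the 10th to the 90th percentile of the loci averaging 1 FPKM or more, the grey line is their median (-0.75 between stages IV and I) and dotted lines mark differences of -1 and 1; in stage IV against I baxa (2.24) lies to the right of the band and baxb (-2.27) inside it, since 4.56% of loci have a larger difference than baxa and 17.9% a smaller one than baxb.

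Beside the lower genes of stage IV, markers of other cell types and of the oocyte were also lower there. Between stages IV and I, 12 of 15 follicle cell markers, 12 of 12 stroma and vessel markers and 12 of 13 blood and leukocyte markers that passed the filter were lower, and 0 were higher, against 44.4% of all loci lower and 19.1% higher. The oocyte markers had 11 of 15 lower and 1 higher (median -2.65). The part of the other cell types in the lower values of baxb, casp3a and bcl2 was not tested. In the first step the follicle cell sum was 647 FPKM in stage I and 437 in stage II. Of its 15 markers 1 was higher (cyp19a1a, 10.3 and 34.3 FPKM) and 3 lower, against 2.67% and 3.15% of loci. The stroma and vessel sum was 322 and 109 FPKM, and the blood and leukocyte sum 178 and 109. In the same stages casp3a was at 47.4 and 72.2 and baxb at 9.48 and 12.9, with the bounds of baxb overlapping. A relation of casp3a and baxb to the marker sums was not tested. Between stages II and III, 9 of 15 follicle cell, 7 of 12 stroma and 9 of 13 blood markers were higher, against 8.67% of loci. Of the higher follicle cell markers, lhcgr, star and inhbaa pass the filter only through stage III, at 18.3, 10.2 and 10.1 FPKM there. The bounds of casp3a, baxb and bcl2 overlapped between stages II and III. The estimate of casp3b, which was below the filter, was highest in stage III, as were these 3 marker sums. Its bounds overlapped between stages II and III, and a relation to the marker sums was not tested.

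**Figure D4:**
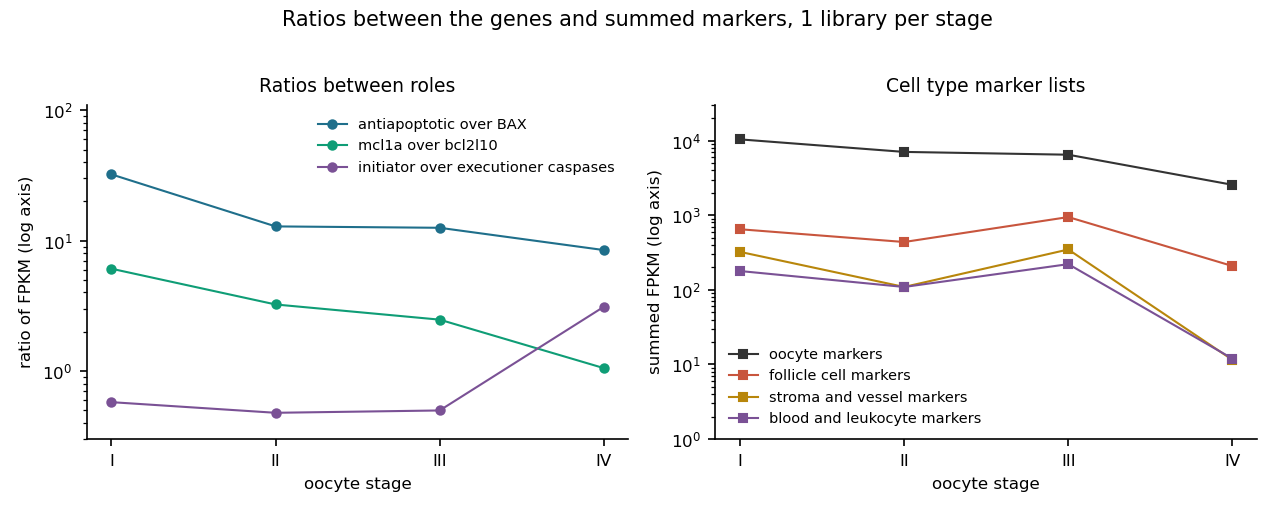
Left, ratios of FPKM within a library (log axis) for the antiapoptotic sum over the BAX sum, mcl1a over bcl2l10, and initiator over executioner caspases; right, summed FPKM (log axis) of 4 cell type marker lists; 1 library per oocyte stage, no error bars. The antiapoptotic over BAX ratio is 32.2 in stage I and 8.46 in stage IV, and the stroma and vessel sum is 347 in stage III and 11.5 in stage IV.

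Around these genes, 73 further genes of the pathway were in the files and 58 passed the filter. Between stages IV and I, 14 of the 58 were higher and 21 lower, against 19.1% and 44.4% of all loci, with a median difference of -0.35. Between stages II and I 0 of the 58 were past the rule, against 5.82% of all loci. Between stages III and II 3 were higher and 1 lower, against 8.67% and 7.5% of loci. Among those 3, a receptor gene passes the filter only through stage III. Between stages IV and III 10 were higher and 23 lower, against 16.4% and 46% of loci. The remaining antiapoptotic relative, bcl2l1, measured 28.3, 29.5, 36 and 21.8 FPKM from stage to stage, and its difference between stages IV and I was -0.36. Of the BOK genes, relatives of BAX, bokb measured 63.5 FPKM in stage I against 113.5 in stage IV, and boka 3.79 and 0.250. The mean of boka passes the filter through stage I.

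In the list of BH3-only genes, BNIP relatives and bcl2l13, the comparison of stages IV and I found 0 of 9 higher and 5 lower. That compares with 19.1% and 44.4% of loci, and the median was -1.70 against -0.75 over all loci. This median is the value of bnip1a, itself among the 5 lower, at 2.24, 1.40, 0.649 and 0 FPKM. Its mean of 1.07 FPKM passes the filter through stage I. The most abundant gene of the list was pmaip1, which encodes NOXA, a BH3-only protein known to bind MCL1. Its successive values were 1744 (1477 to 2012), 1418 (1187 to 1649), 948 (764 to 1132) and 129.6 (62.1 to 197) FPKM, and stage IV was 13.5-fold below stage I. The ratio of pmaip1 to the summed mcl1 genes was 1.83 (1.52 to 2.17), 2.65 (2.15 to 3.17), 1.85 (1.44 to 2.28) and 0.216 (0.0998 to 0.340). Stages I to III overlapped in part, and stage IV was below them. The BCL2-like gene bcl2l13, which acts at mitochondria, measured 63.5 FPKM in the first stage and 8.37 in the last.

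Downstream of the mitochondria, 3 of 10 apoptosome and release genes that passed were past the rule upward and 3 downward between stages IV and I. That compares with 19.1% and 44.4% of loci, and the median was 0.09 against -0.75 over all loci. The apoptosome scaffold gene apaf1 had successive values of 25.5 (23.7 to 27.4), 23 (20.8 to 25.2), 17.7 (16 to 19.4) and 1.28 (0.680 to 1.88) FPKM, a difference of -3.54 between stages IV and I, while its partner casp9 was higher in stage IV. Diabloa, which relieves inhibition of caspases, measured 17.9 FPKM in stage I against 2.93 in stage IV. Its paralogue diablob was more abundant and went the other way, at 61.7 (56.1 to 67.4) and 93.1 (85.7 to 100.5) FPKM. That difference, 0.58, was under the rule.

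Of 5 inhibitor of apoptosis genes that passed, 2 were higher and 1 lower in that comparison, against 19.1% and 44.4% of loci. Their median was 0.87, against -0.75 over all loci. The survivin gene birc5a, which also serves in chromosome segregation, measured 44.3 FPKM in stage I against 283 in stage IV. Its paralogue birc5b was more abundant, at 613 (579 to 647) and 677 (641 to 714) FPKM. The bounds of birc5b overlapped, and its difference, 0.14, was under the rule. The gene birc2, a ubiquitin ligase of receptor signalling, measured 61.6 against 2.04.

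On the receptor side of casp8, the same comparison put 8 of 13 death receptor and adaptor genes lower and 3 higher, against 44.4% and 19.1% of loci, with a median of -1.53. The adaptor gene fadd, which links receptors to caspase 8, measured 11.9, 12.1 and 13.5 FPKM before stage IV, where it was listed at 0. The receptor gene tnfrsf1a measured 5.04 FPKM in stage I against 0.312 in stage IV. The higher genes were casp8ap2, which encodes a nuclear protein that binds caspase 8, at 7.69 (6.86 to 8.53) and 96 (92.1 to 99.8), the ligand gene tnfsf10l4, at 7.55 and 49.4, and the adaptor gene cradd, at 8.91 and 27.4.

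Of 7 genes whose products caspases cut, 3 were higher and 3 lower between stages IV and I, against 19.1% and 44.4% of loci. The nuclear lamina genes lmnb1 and lmnb2 measured 88 against 571 FPKM and 4.89 against 31.6 FPKM, stage I being given first. The paralogues acin1a and acin1b, named for a chromatin condensation factor cut by caspases, went apart, with acin1a at 70.1 and 268 FPKM and acin1b at 54.9 and 5.77. The nuclease inhibitor gene dffa (13.7 against 2.94 FPKM) and the kinase gene rock1 (9.73 against 1.82) were lower, and the DNA repair gene parp1 (12.4 against 9.03) was under the rule. The caspase casp2 measured 16.8, 29.5, 27.9 and 12.8 FPKM in stages I to IV. Its difference was -0.37 between stages IV and I and -1.07, past the rule, between stages IV and III. Of the further executioners, casp6 and casp6l1 were past the rule, with stage I and stage IV values of 0.332 and 2.44 FPKM for casp6 and 0.870 and 4.01 FPKM for casp6l1, and their means pass the filter through stage IV. The further initiators that passed, casp2 and casp8l1, were under the rule between stages IV and I, and neither of 2 inflammatory caspase genes reached a mean of 1 FPKM.

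**Figure D5:**
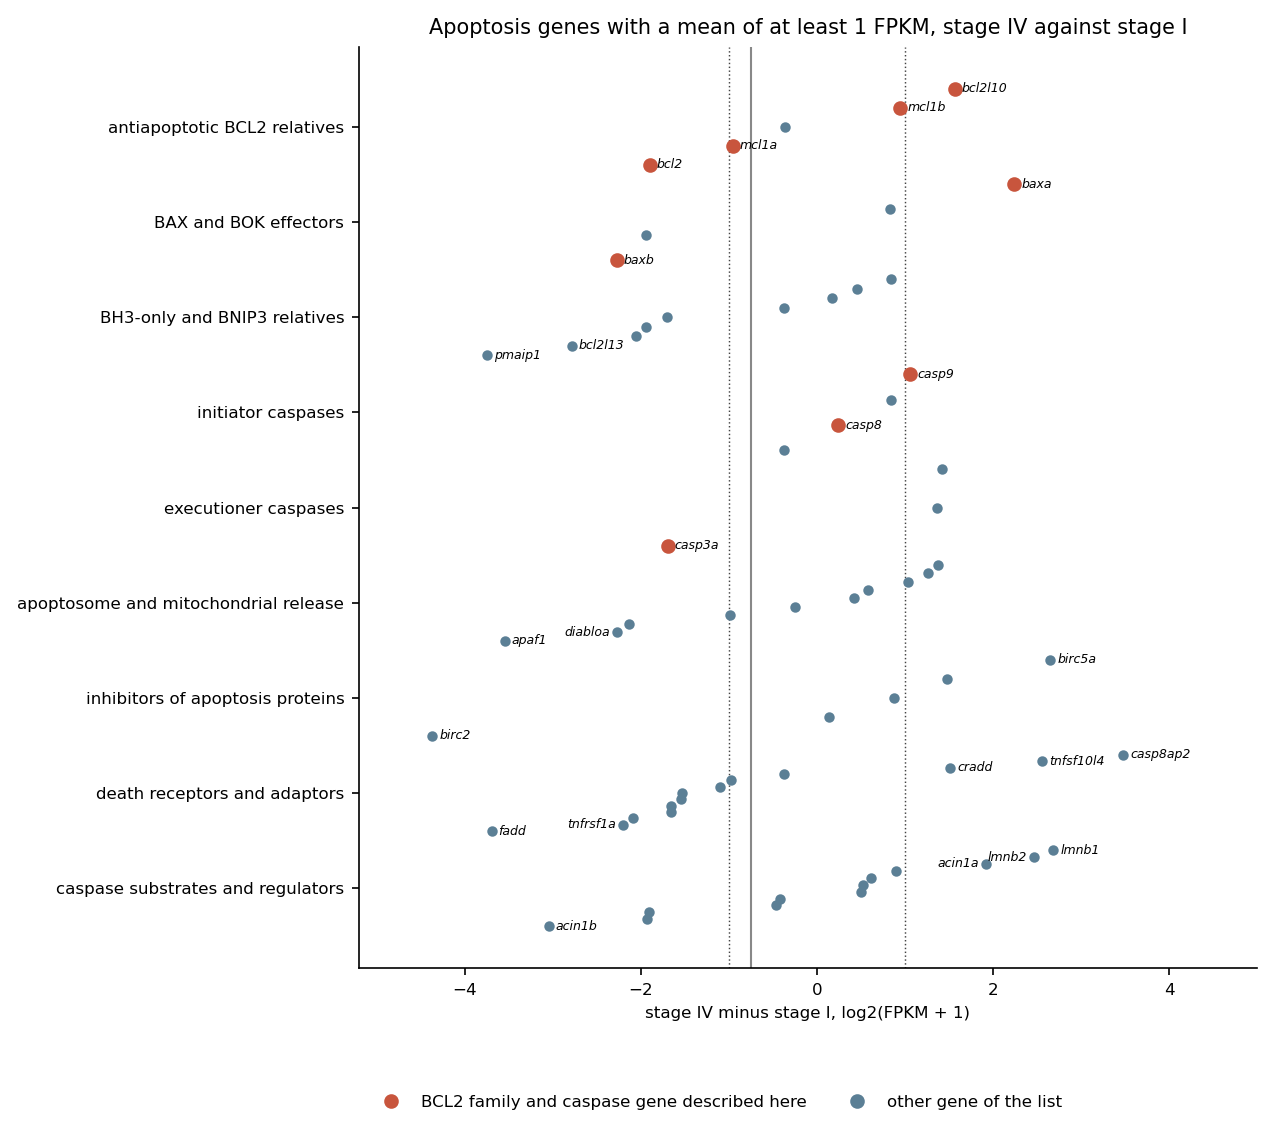
Difference of log2(FPKM + 1) between stages IV and I, 1 library each, for reported genes of 9 apoptosis lists with a mean of at least 1 FPKM; red points are genes of the BCL2 family and caspase set, blue points other genes, the grey line is the median of all 14109 loci (-0.75) and dotted lines mark -1 and 1. Points spread vertically within a list only for legibility; labelled blue genes are the reported ones among the 8 largest differences in each direction, from birc2 (-4.37) to casp8ap2 (3.48).

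The loci with the profile closest to the most abundant member of each family were found by the distance between log2(FPKM + 1) profiles, each centred on its own mean over the 4 libraries. Closest to mcl1a were si:ch211-67b18.1 (distance 0.080), cbln1 (0.082) and pycr1a (0.086), all at far lower levels, with pycr1a, for example, at successive values of 3.24, 1.31, 1.22 and 1.28 FPKM. Within a distance of 0.5 lay 1.19% of the other 14108 loci. Closest to casp3a were dis3l (0.051), lipin2 (0.057) and spryd7a (0.065), and 5.33% of loci lay within 0.5. The gene lipin2 was at 18.4, 29.4, 25.5 and 4.90 FPKM. A profile of 4 points is matched by many loci.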

How the data were processed

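Poly(A) RNA of 4 oocyte stages was measured, 1 library each, and the authors deposited FPKM values with lower and upper bounds per locus, per the file headers. Per the submitters' processing notes, the build was danRer7 and the series as a whole used STAR 2.5.3a among its tools, with no role stated, and the quantification program and its use of strand are not given in the sources used here. All further samples are not used here.

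Tables were joined on symbol and locus (Python 3.11.15, pandas 2.3.3). Where a symbol has several loci, the one of highest mean level was used. Starts were read as counted from 0, since only then are coding lengths divisible by 3 (10 of 13 mitochondrial genes, against 0 of 13 otherwise), and 1 was added. No locus of another symbol overlapped a member's locus. Each comparison subtracted log2(FPKM + 1) values, which understates changes of low genes. It used the 14109 loci averaging 1 FPKM or more and called a difference of 1 or more. With 1 library per stage no test was run. Fragment equivalents, (2 × FPKM / half-width of the bounds) squared, are the counted fragments that would give such bounds. They are the only measure of depth used here. The range of a difference or ratio sets 1 value at its lower and the other at its upper bound. The calculations were tested on simulated data. The genes and lists were chosen with earlier results of these data known, so their direction is not independent support. All 10 members are named, and of the other pathway genes at most 8 higher and 8 lower by size of the stage IV against I difference, except any that is not reported here. The bokb, boka, bcl2l1, casp6, casp6l1, casp2 and casp8l1 values, as close relatives of the members, and dffa, rock1 and parp1 as caspase substrates were added after values were seen. So were bnip1a, as the gene at the median of its list, and diablob and birc5b, as the paralogues of diabloa and birc5a. Alternatives were other pseudocounts, filters, scaling, thresholds and a demand on bounds.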

Additional observations from a re-analysis of the deposited data

How the results depend on the processing

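No paired analysis was possible because each stage has 1 library and the labels give these libraries no replicate number. Counts of members past the rule, in 4 comparisons and 2 directions, stayed within 1.5 times with pseudocounts of 0.1 and 5, with no filter, and when the bounds of both libraries had to be apart. The shares of loci did change. With no filter, 3 of 10 members were higher and 3 lower between stages IV and I, against 9.75% and 23.4% of loci. The medians of that comparison were then 0.03 over the members and -0.07 over all loci. With a filter at a mean of 10 FPKM, which removes baxb and bcl2, 1 member was lower between stages IV and I (42% of loci). Between stages IV and III 1 was lower (42.6% of loci), and the median between stages IV and I was 0.95, against -0.51 for all loci. At a difference of 2 or more, 1 member was higher and 1 lower between stages IV and I, against 6.75% and 22.3% of loci. Between stages IV and III 0 were higher, against 5.04% of loci. With a pseudocount of 5, 2 members were higher and 2 lower between stages IV and I, casp9 and bcl2 no longer being called. The shares of loci were 15.3% and 27.5%. Between stages IV and III 2 were lower, again without bcl2, against 29% of loci.

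Median-of-ratios scaling gave 5 higher members between stages IV and I (31.8% of loci) and 5 between stages IV and III (30.7%). The medians were 1.07 and 1.20, against -0.05 and -0.05 for all loci. The scaling left 2 lower members between stages IV and III, baxb and casp3a, against 31.7% of loci, with bcl2 at -0.83. Under it the antiapoptotic sums of stages I to IV were 985, 551, 609 and 1678, the BAX sums of stages II to IV 42.8, 48.6 and 198, the initiator sums of stages II to IV 27.6, 28.7 and 71.2, and the executioner sums of stages I to IV 42.7, 57.9, 57.7 and 22.9. Deposited and scaled sums differ by the factor of the library, 0.613 in stage IV against 1.12, 1.26 and 1.16 in stages I to III. No called difference of a member changed sign under the pseudocounts and this scaling. Depth limits bcl2 in stage IV, casp3b in all libraries, and baxb in stage IV, whose bounds are as wide as those of 11.9 fragments.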

Other observations

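The files hold further loci named after these genes. A locus named BAX (3 of 5) (chromosome 7, 54755948 to 54779600, danRer7) had successive values of 5.52 (4.19 to 6.85), 9.10 (7.34 to 10.9), 17.9 (15.4 to 20.4) and 6.49 (4.97 to 8.00) FPKM from stage I on, highest in stage III with bounds apart from those of the other stages. A locus named BAX (5 of 5) was listed at 0 in all 4 libraries, and BCL2 (2 of 2) reached at most 0.065 FPKM. The second locus of bcl2 (chromosome 24, 29007355 to 29007984) measured 0.471, 0.898 and 1.11 FPKM before stage IV and was listed at 0 there, and the second locus of baxa (chromosome 3, 37761255 to 37768582) stayed between 0.222 and 0.437 FPKM. These loci were picked by name after the values were seen, and none was counted in the antiapoptotic or BAX sums.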
